A study of Mus musculus with 7 samples.

Results

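The Hist1 genes form the largest mouse group of replication-dependent histone genes, and were taken here as every gene of chromosome 13 in the mm9 annotation (GENCODE vM1) whose symbol starts with Hist1h. This gave 56 of the 37310 annotated genes, 55 of them protein-coding and 1 a pseudogene, Hist1h2aj. By the histone each encodes there were 6 linker H1, 15 H2A, 15 H2B, 9 H3 and 11 H4 genes. Members under 500 kb apart were joined into runs, and the span of each run was extended by 50 kb on each side to give a window in which every peak was taken.

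The study mapped CTCF and the cohesin subunit Rad21 by ChIP-seq in liver of untreated female Crl:CD1(ICR) mice aged 8 weeks, an outbred stock, with 4 CTCF libraries and 3 Rad21 libraries. Libraries of 1 antibody had been pooled before peak calling, so there is 1 peak list per factor, with 68667 CTCF peaks and 68656 Rad21 peaks, and no spread between mice can be given for any value. The read depth of the pools was not used here, and a start without a listed peak may lie below the detection limit of the pool rather than lack the factor. Fold enrichment is the height of a peak at its summit over the local background. Its sizes were compared only within 1 list, except to choose which members to name. Limits of 5 and 10 were set alike in both lists but cut them unequally. At 10 or more stood 33.2% of autosomal CTCF peaks and 21.4% of autosomal Rad21 peaks.

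Replication-dependent histone genes supply the core and linker histones that package newly copied DNA, and are transcribed mainly in S phase. Their transcripts lack introns and end in a stem-loop in place of a poly(A) tail. Most hepatocytes of adult liver are not dividing, whole liver also holds other cell types, and the peak lists do not say which cells carried a peak. CTCF is a zinc finger protein that binds a long directional motif and can halt the cohesin ring, of which Rad21 is a part, as the ring extrudes a loop of DNA. A CTCF peak sharing 1 bp or more with a Rad21 peak is called CAC (cohesin and CTCF), a CTCF peak sharing none Lone CTCF, and a Rad21 peak without CTCF CNC (cohesin, non-CTCF).

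The genes fell into 3 runs. Run 1 held 24 genes over 327.9 kb, from 21807632 to 22135545. Run 2 held 31 genes over 403.8 kb, from 23622919 to 24026720. Run 3 was a single H2A gene, Hist1h2al, at 51298057 to 51298434. Of the 6 linker H1 genes, 5 lay in run 2, and of the 9 H3 genes, 7 did.

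Sequences at some of the peaks next to the genes are given first. The 6 below, read from mm9, are the CTCF motif matches, with 50 bases on either side, of the peaks that border run 1, of the strongest peak on the right of run 2 and of the strongest peak next to a member. Each is written 5′ to 3′ on the strand of the match, and the capitals mark the 20-base match to the CTCF motif.
Run 1 left border, strongest peak, chr13:21801906-21802025, plus strand: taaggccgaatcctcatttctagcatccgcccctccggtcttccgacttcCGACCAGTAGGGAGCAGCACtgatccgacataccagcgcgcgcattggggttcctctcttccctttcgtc
Run 1 left border, nearest peak, chr13:21806728-21806847, plus strand: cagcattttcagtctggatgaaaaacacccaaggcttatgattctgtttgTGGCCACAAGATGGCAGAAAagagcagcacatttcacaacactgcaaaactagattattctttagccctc
Peak upstream of Hist1h4j, chr13:21826095-21826214, minus strand: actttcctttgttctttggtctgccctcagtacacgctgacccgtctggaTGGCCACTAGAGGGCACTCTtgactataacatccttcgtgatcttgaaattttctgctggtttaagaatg
Run 1 right border, nearest peak, chr13:22136133-22136252, minus strand: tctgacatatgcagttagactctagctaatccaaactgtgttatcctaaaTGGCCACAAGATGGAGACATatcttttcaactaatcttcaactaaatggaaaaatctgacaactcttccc
Run 1 right border, strongest peak, chr13:22142936-22143055, minus strand: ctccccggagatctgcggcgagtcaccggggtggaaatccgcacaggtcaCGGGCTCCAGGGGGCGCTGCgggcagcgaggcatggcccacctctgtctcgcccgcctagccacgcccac
Run 2 right border, strongest peak, chr13:24042940-24043059, minus strand: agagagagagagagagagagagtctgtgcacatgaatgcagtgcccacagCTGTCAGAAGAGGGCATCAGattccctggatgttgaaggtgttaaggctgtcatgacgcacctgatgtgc

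Many H2A and H2B genes stand head to head and share the short stretch between their starts. Of the 12 head-to-head pairs of members within 1 kb, 11 joined an H2A and an H2B gene, and their starts lay 167 to 692 bp apart (median 228.5 bp). The whole stretch between the starts is given for 4 pairs, read from mm9 and cut at the start that lies farther upstream of each gene in mm9 GENCODE or RefSeq. The first 2 pairs had a CTCF peak and no Rad21 peak within 1 kb, and the last 2 had neither. Capitals mark the TATA element TATAAA, the CCAAT element and the octamer element ATTTGCAT, searched on both strands, so that each also appears as its reverse complement. None of the 3 holds another.
Hist1h2ah to Hist1h2bk, chr13:22127513-22127689, plus strand: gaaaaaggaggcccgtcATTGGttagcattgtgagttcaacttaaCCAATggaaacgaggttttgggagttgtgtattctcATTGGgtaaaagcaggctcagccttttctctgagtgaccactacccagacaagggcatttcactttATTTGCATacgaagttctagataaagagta
Hist1h2ae to Hist1h2bg, chr13:23663090-23663264, plus strand: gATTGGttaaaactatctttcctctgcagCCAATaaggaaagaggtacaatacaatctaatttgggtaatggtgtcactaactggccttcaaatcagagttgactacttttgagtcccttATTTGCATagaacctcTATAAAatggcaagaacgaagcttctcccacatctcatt
Hist1h2bf to Hist1h2ad, chr13:23666077-23666249, plus strand: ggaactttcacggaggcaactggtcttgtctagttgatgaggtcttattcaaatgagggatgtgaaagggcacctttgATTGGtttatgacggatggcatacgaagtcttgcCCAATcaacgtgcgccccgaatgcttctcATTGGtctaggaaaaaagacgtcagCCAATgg
Hist1h2ba to Hist1h2aa, chr13:24026026-24026305, plus strand: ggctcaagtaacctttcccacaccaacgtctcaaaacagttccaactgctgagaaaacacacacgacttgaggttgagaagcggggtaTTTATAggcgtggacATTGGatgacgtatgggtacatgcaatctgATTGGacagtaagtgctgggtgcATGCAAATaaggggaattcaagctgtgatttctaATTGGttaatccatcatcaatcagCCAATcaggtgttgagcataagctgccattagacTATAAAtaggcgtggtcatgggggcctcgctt
Promoters of single genes are shown for 1 linker, 1 H3 and 1 H4 gene with a CTCF peak and no Rad21 peak, as the 150 bases before the start that GENCODE and RefSeq share, with the same marks.
Hist1h1c, chr13:23830526-23830675, plus strand: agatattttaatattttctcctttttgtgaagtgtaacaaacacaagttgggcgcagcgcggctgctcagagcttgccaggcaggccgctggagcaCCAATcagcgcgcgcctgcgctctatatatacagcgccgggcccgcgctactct
Hist1h3d, chr13:23667482-23667631, plus strand: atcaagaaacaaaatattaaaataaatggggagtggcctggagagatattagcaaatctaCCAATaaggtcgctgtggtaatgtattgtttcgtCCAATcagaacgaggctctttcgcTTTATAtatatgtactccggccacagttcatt
Hist1h4b, chr13:23848656-23848805, plus strand: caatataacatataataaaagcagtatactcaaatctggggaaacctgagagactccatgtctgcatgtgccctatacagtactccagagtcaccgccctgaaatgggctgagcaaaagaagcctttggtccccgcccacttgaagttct

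The first question was how densely the Hist1 windows are occupied. The windows held 79 CTCF peaks, 21 in run 1, 53 in run 2 and 5 in run 3. Per 100 kb this was 7.65 CTCF peaks, against 2.38 on chromosome 13 and 2.80 over the autosomes. In run 2 the density reached 10.5 per 100 kb, and in runs 1 and 3 it was 4.91 and 4.98. Rad21 had 46 peaks, 11, 29 and 6 in the 3 runs, or 4.46 per 100 kb, against 2.52 on chromosome 13 and 2.81 over the autosomes. In run 1 Rad21 stood at 2.57 per 100 kb, close to the chromosome's 2.52, and in run 2 at 5.76. The excess over the chromosome was thus larger for CTCF than for Rad21 in runs 1 and 2. In run 3 the order was turned, with 5.98 Rad21 peaks per 100 kb.

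Of the 79 CTCF peaks, 33 were CAC, a share of 41.8% (95% Wilson interval 31.5 to 52.8%). On chromosome 13 the share was 73.5% and over the autosomes 73.8%. These and all later intervals cover counting error only. Of the 46 Rad21 peaks, 33 were CAC, or 71.7% (57.5 to 82.7%), against 68.9% on chromosome 13. The share of Rad21 peaks with CTCF was thus close to that of the chromosome, whereas most CTCF peaks of the windows were Lone CTCF. This holds for the full lists. With a fold enrichment of at least 5 in both lists, 19 of the 33 CTCF peaks left in the windows were CAC.

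Those Lone CTCF peaks were weak. Their median fold enrichment was 3.67, and that of the CAC peaks in the windows was 12.4. On chromosome 13 the corresponding medians were 3.84 and 8.11. Over all CTCF peaks of the windows the median was 4.45, against 5.87 on chromosome 13, and 46 of 79 peaks stayed below 5. The Rad21 median of 4.92 was close to the 5.07 of chromosome 13.

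**Figure D1:**
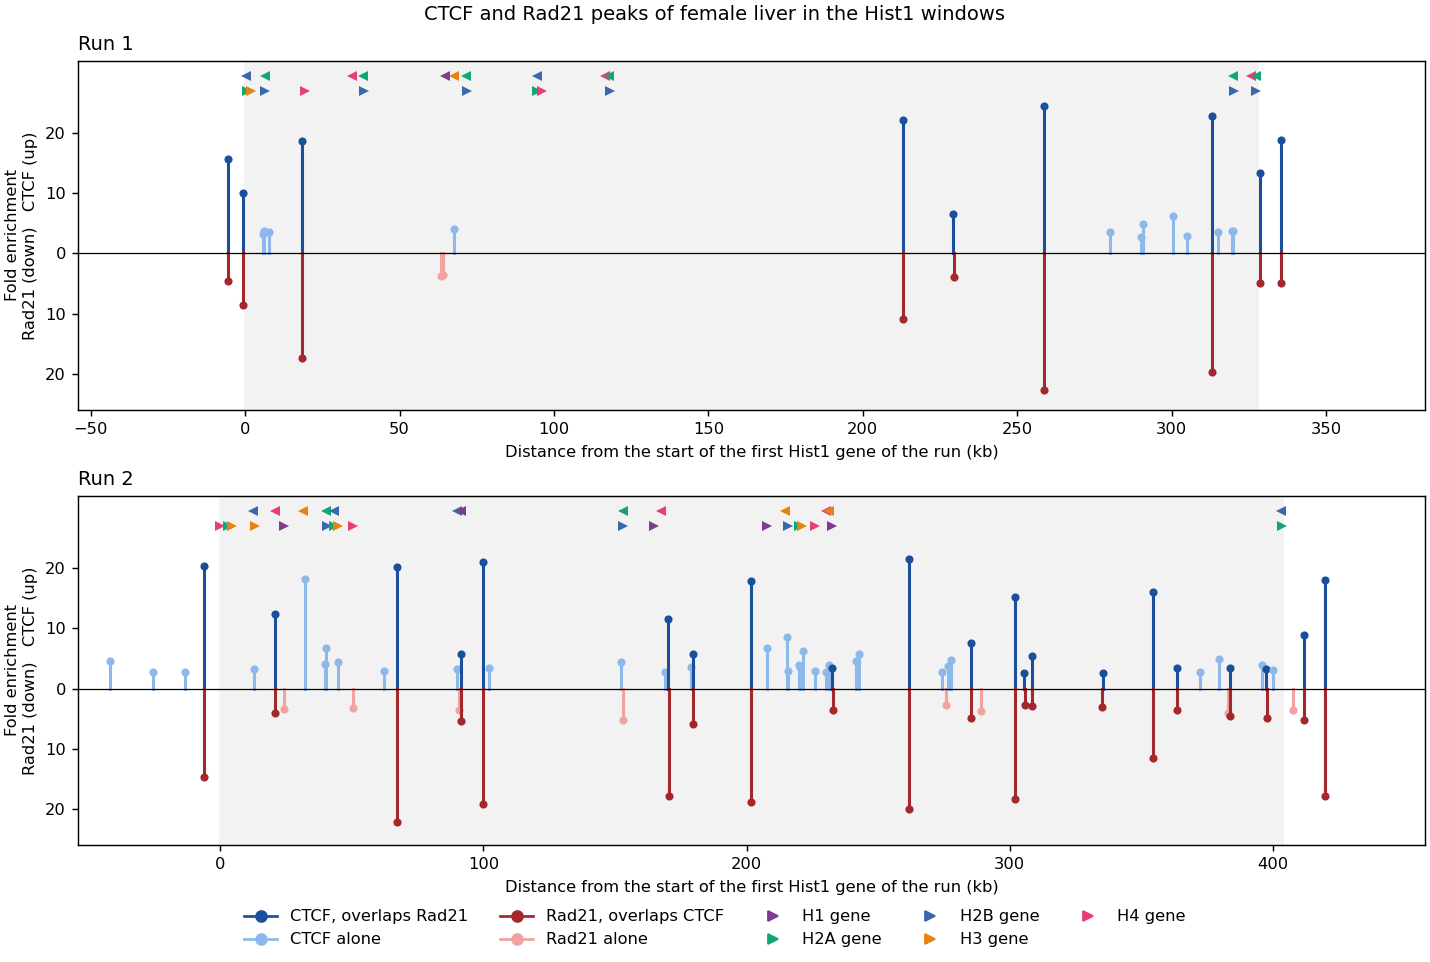
Map of the CTCF and Rad21 peaks in the windows of run 1 (top) and run 2 (bottom). The x axis is the distance in kb from the start of the first Hist1 gene, the y axis the fold enrichment of each peak at its summit, with CTCF drawn upward and Rad21 downward; dark stems overlap a peak of the other factor, arrowheads are gene starts pointing in the direction of transcription and colored by histone class, and gray marks the span of the genes. The longest stretch without a strong shared peak, 194 kb, lies in run 1 and holds 14 gene starts, 6 of them in sequence with few or no 50-base words found once in mm9.

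The next comparison asked which gene starts carry a peak. A CTCF peak lay within 1 kb of the start of 28 of 56 Hist1 genes (50%, 37.3 to 62.7%), and the share among all 21418 protein-coding autosomal genes was 50.9%. A Rad21 peak lay within 1 kb of 12 of 56 starts (21.4%, 12.7 to 33.8%), against 50.5% of the background. Both factors were found at 9 of 56 starts (16.1%), against 47.2%. CTCF without Rad21 was found at 19 of 56 starts (33.9%, 22.9 to 47.0%), against 3.64%. Rad21 without CTCF was found at 3 starts, against a background of 3.23%, and 25 starts had neither factor, as did 9830 of the 21418 background genes. The Hist1 genes therefore lay close to the background in the share of starts with CTCF and below it in the share with Rad21, and the interval of the Rad21 share did not reach the background value.

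Neighboring members share peaks, so these counts are not independent. The 28 starts were served by 27 distinct CTCF peaks, since 12 of the peaks lay within 1 kb of more than 1 member and some members had several peaks. Of the 27 peaks, 21 were Lone CTCF and 18 lay below the median fold enrichment of the whole CTCF list, 6.05. The 12 starts with Rad21 were served by 11 distinct peaks, of which 6 were CAC and 5 CNC.

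**Figure D2:**
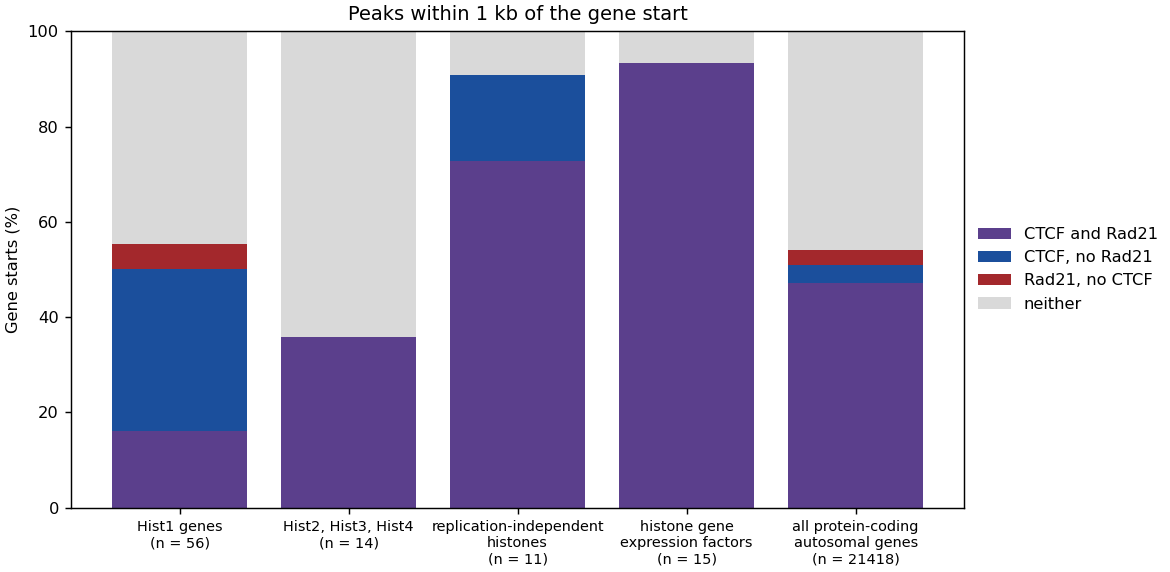
Stacked bars of the percent of gene starts (y axis) with CTCF and Rad21, CTCF alone, Rad21 alone or neither within 1 kb, for the Hist1 genes, the 3 comparison lists and all protein-coding autosomal genes, with n under each bar. CTCF without Rad21 takes 33.9% of the Hist1 starts and 3.64% of all starts, while the shares with any CTCF peak are 50% and 50.9%.

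Weak CTCF peaks lack Rad21 more often than strong ones throughout the genome, so the starts were compared within ranges of CTCF fold enrichment. Among Hist1 starts whose strongest CTCF peak was below 5, 12 of 16 had no Rad21 peak (75%, 50.5 to 89.8%), against 15.8% of background starts in the same range. Between 5 and 10 this held for 6 of 7 Hist1 starts (85.7%, 48.7 to 97.4%), against 3.71%. At 10 or more it held for 1 of 5 (20%, 3.62 to 62.4%), against 1.02%. The share of Hist1 starts thus lay above that of the background in each of the 3 ranges, on small numbers of starts, and strength was not matched within a range. Starts that share a peak, such as Hist1h2ae with Hist1h2bg and Hist1h3c with Hist1h2bb, were counted separately. The intervals take no account of this sharing.

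At these 19 starts the Rad21 peak nearest to the CTCF summit lay 1.19 to 13.5 kb from that summit, with a median of 6.57 kb. The shortest distances were 1.19 kb at Hist1h3a and 2.1 kb at Hist1h4a. When Rad21 was looked for within 2 kb and CTCF within 1 kb, 18 starts had CTCF without Rad21, against 3.0% of background starts. With only peaks of a fold enrichment of at least 5 kept in both lists, 9 of 56 starts had CTCF without Rad21 (16.1%), against 10.1%. With at least 5 required of CTCF alone and any Rad21 peak counted, 7 of 56 did (12.5%), against 0.882%. As a share of all starts, the gap to the background was thus much narrower once weak Rad21 peaks were left out. The share among only those starts with a CTCF peak of at least 5 was not compared in that setting.

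**Figure D3:**
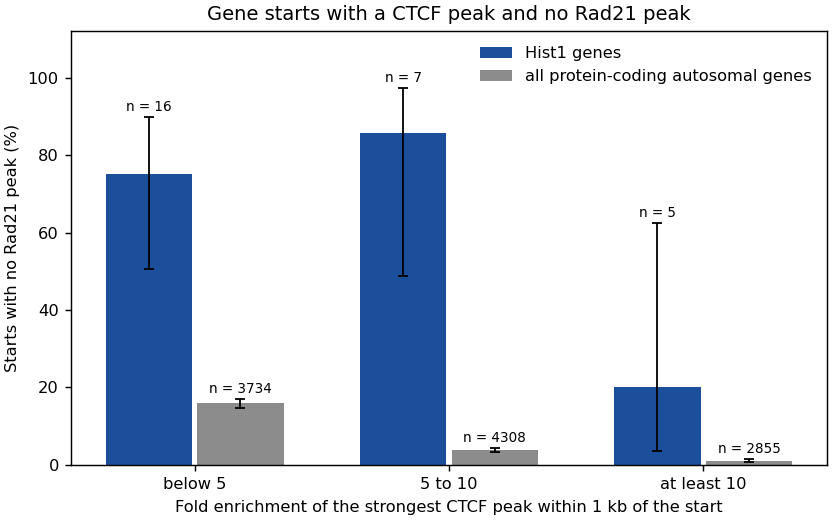
Percent of gene starts with a CTCF peak within 1 kb that had no Rad21 peak there (y axis), by fold enrichment of the strongest CTCF peak (x axis), for Hist1 genes and for all protein-coding autosomal genes. Error bars are 95% Wilson intervals and n is the number of starts with CTCF, with starts that share a peak counted separately. Below a fold enrichment of 5 the shares were 75% and 15.8%, and from 5 to 10 they were 85.7% and 3.71%.

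Linker H1 genes encode the histone that binds the nucleosome where DNA enters and leaves. Of the 6, 3 had CTCF and 4 had Rad21 within 1 kb. Hist1h1e had a CAC peak, with a fold enrichment of 5.74 for CTCF and 5.37 for Rad21. Hist1h1a had another, with 3.48 for CTCF and 3.56 for Rad21. Both were thus shared peaks with summits between 36 and 117 bp downstream of the start.

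Hist1h1c carried CTCF without Rad21, at 6.67 and 93 bp downstream of the start. The reverse was seen at Hist1h1b, with a Rad21 peak of 3.64 whose summit lay 958 bp downstream, and at Hist1h1d, with a Rad21 peak of 3.35 at 36 bp downstream. Hist1h1t, which encodes the testis linker histone, had neither. In the full lists the H1 class was the only class of the 5 with more Rad21 than CTCF starts, by 1 gene. This order rested on weak Rad21 peaks. With a fold enrichment of at least 5 in both lists, only Hist1h1e kept Rad21, at 5.37. CTCF was then kept at Hist1h1e, at 5.74, and at Hist1h1c, so the order turned. It also turned under the q limit given below, where only Hist1h1e kept Rad21 and Hist1h1a, Hist1h1c and Hist1h1e kept CTCF.

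H2A and H2B form the dimers that flank the central tetramer of the nucleosome. Of the 15 H2A genes, 5 had CTCF and 1 had Rad21. Of the 15 H2B genes, 9 had CTCF and 4 had Rad21. At 2 of the 9 H2B starts the peak lay beyond the far end of the gene, within the 1 kb limit of the H2B gene and outside that of its H2A partner.

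These were the genes at both ends of run 1. The CTCF peak at Hist1h2bl (10.1, with Rad21 at 8.59) had its summit 1242 bp downstream of the start, beyond the end of this short gene, and its partner Hist1h2ai had no peak. The CTCF peak at Hist1h2bj (13.3, with Rad21 at 4.91) had its summit 1111 bp downstream, and its partner Hist1h2ag had no peak. Both peaks count as promoter peaks by distance only, and both are the border peaks described later.

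Several pairs carried CTCF alone. At Hist1h2ae and Hist1h2bg the strongest CTCF peak was 6.72, with its summit 107 bp downstream of the H2A start. At Hist1h2ah and Hist1h2bk it was 3.67, with its summit 487 bp downstream of the H2A start. Both of these pairs had 2 Lone CTCF peaks and, as printed, an octamer element ATTTGCAT between their starts.

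A further weak peak served Hist1h2aj and Hist1h2bm, whose gene records overlap at their starts, at 3.77. Hist1h2bh shared a CTCF peak of 3.30 with the H3 gene Hist1h3f, in the 692 bp between their starts. Hist1h2bb had the strongest Lone CTCF peak of the H2A and H2B genes, 8.60 at 308 bp upstream, which also lay 824 bp upstream of Hist1h3c. Hist1h2ab had a peak of 3.83 at 55 bp downstream. None of these 4 loci had Rad21 within 1 kb.

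CTCF and Rad21 were both found, in separate peaks, at Hist1h2ac and Hist1h2bc, with CTCF at 4.36 and Rad21 at 5.31. The Rad21 summit lay 28 bp downstream of the H2A start and the CTCF summit 435 bp downstream of it. Hist1h2be also had separate peaks, CTCF at 3.27 and Rad21 at 3.53. For Hist1h2be the annotated start lies 35168 bases upstream of the coding start, so this start is not next to the coding sequence and lies near that of Hist1h1e.

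Over the 12 pairs, 6 had a CTCF peak, 3 a Rad21 peak as well, and 6 had neither. The pairs with neither included Hist1h2ba and Hist1h2aa, which encode the testis forms of H2B and H2A, and Hist1h2bf and Hist1h2ad. Among H2A genes 10 starts had no peak of either factor: Hist1h2ai, Hist1h2ak, Hist1h2an, Hist1h2ao, Hist1h2ap, Hist1h2ag, Hist1h2af, Hist1h2ad, Hist1h2aa and Hist1h2al. Among H2B genes 6 had none: Hist1h2bn, Hist1h2bp, Hist1h2bq, Hist1h2br, Hist1h2bf and Hist1h2ba.

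H3 genes, whose product carries many of the known regulatory marks on its tail, had CTCF at 7 of 9 starts (77.8%, 45.3 to 93.7%), and the background of 50.9% lay inside this interval. None of the 9 had Rad21 within 1 kb, against a background of 50.5%, and a count of 0 of 9 allows a share of up to 33.3%, taken as 3 counts of the total here and for later counts of 0. The strongest was the Lone CTCF peak of Hist1h3e, at chr13:23654795-23655388, with a fold enrichment of 18.3 and its summit 920 bp upstream of the start. It was the strongest Lone CTCF peak of all 3 windows and stood at the 87.5th percentile of the CTCF list, with the nearest Rad21 peak 8.09 kb from its summit. Its best match to the CTCF motif scored 5.50 bits, below the strict and the loose threshold for a match, 12.7 and 7.55 bits.

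The other H3 genes with CTCF had weaker peaks. Hist1h3c had 8.60 and Hist1h3b had 6.26. Hist1h3d had 4.45, Hist1h3i 4.05 and Hist1h3a 3.94. The summits of Hist1h3a, Hist1h3i, Hist1h3d and Hist1h3b lay 18, 25, 30 and 106 bp downstream of the start, so these 4 peaks sat on the start itself. Hist1h3f shared its peak with Hist1h2bh, and Hist1h3h and Hist1h3g had neither factor.

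H4 pairs with H3 in the tetramer. Of the 11 H4 genes, 4 had CTCF and 3 had Rad21. Hist1h4j had the strongest promoter peak of all 56 members, a CAC peak with 18.7 for CTCF and 17.4 for Rad21, its summit 736 bp upstream. Hist1h4f had a CAC peak right at the start, with a CTCF summit 41 bp upstream at 12.4 and Rad21 at 4.09. These were the only H4 starts with both factors.

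Hist1h4b had a weak Lone CTCF peak of 2.89 at 70 bp downstream, and Hist1h4a was the other H4 gene with CTCF alone. Hist1h4d had a CNC peak of 3.25 with its summit 110 bp upstream, which also lay within 1 kb of the start of Gm17658. The 6 H4 genes with neither were Hist1h4k, Hist1h4m, Hist1h4n, Hist1h4i, Hist1h4h and Hist1h4c.

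The summit of the strongest CTCF peak lay downstream of the start in 16 of the 28 members with CTCF (57.1%), with a median of 27.5 bp downstream. For all protein-coding autosomal genes the share was 59.8% and the median 89.0 bp, so the position of the CTCF summit at the Hist1 genes was near that of genes in general.

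By run, CTCF was at 8 of 24 starts in run 1 and 20 of 31 in run 2. Rad21 was at 4 of 24 and 8 of 31. Hist1h2al, the single gene of run 3, had neither.

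Many core histone genes resemble other members in sequence, and the authors kept only reads that mapped to 1 place. In the 1 kb on each side of a member's start, the median share of 50-base words found once in mm9 was 75.2%, against 100% for the other protein-coding genes of chromosome 13. Of the 56 members, 6 fell below 50%. Hist1h2bq, Hist1h2ao, Hist1h2ap and Hist1h2br had 0% and Hist1h4m and Hist1h4n had 7.02% and 8.04%. These 6 genes lie side by side in run 1, and none had a peak.

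Uniqueness also differed between the calls. The median was 86.6% for the 9 starts with both factors, 78.3% for the 19 with CTCF alone, 94.3% for the 3 with Rad21 alone and 70.0% for the 25 with neither. It was 70.0% in run 1 and 86.7% in run 2. Without the 6 repeated genes, CTCF was at 28 of 50 starts (56.0%) and Rad21 at 12 of 50 (24%). The part of sequence uniqueness in the calls beyond these 6 genes was not tested.

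**Figure D4:**
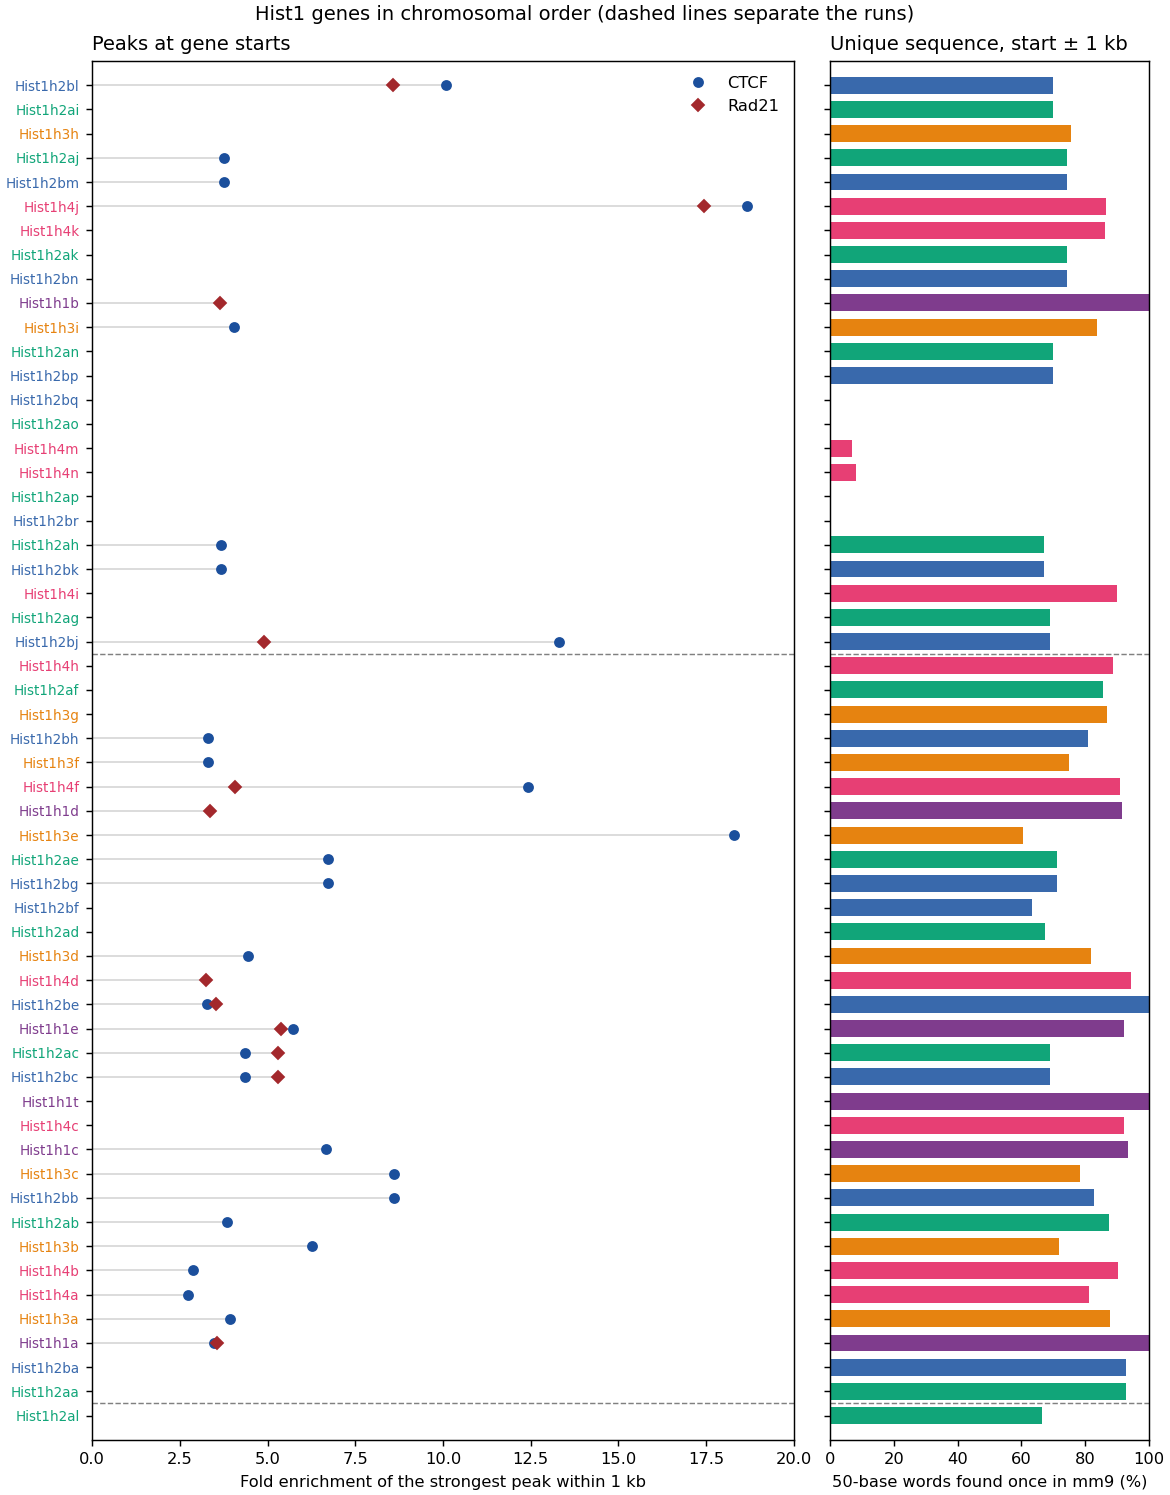
The 56 Hist1 genes from top to bottom in chromosomal order, with names colored by histone class. Left, fold enrichment (x axis) of the strongest CTCF and Rad21 peak within 1 kb of each start. Right, percent of 50-base words within 1 kb of the start that occur once in mm9; the 6 genes with the shortest bars, at 0 to 8.04%, have no peak.

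Sequence elements were searched in the 250 bases before the start, in the RefSeq promoter table (GRCm38.p6), which held 51 of the 56 members. Each of the 51 had 1 exact match on its own strand of chromosome 13 in mm9, within 100 bp of the annotated start. Copies on the other strand were not counted, and Hist1h2bq and Hist1h2br share the same upstream sequence in opposite directions. TATAAA, the TATA element, was in 26 of 51 (51%), against 12.4% of all 32851 promoters of the table. CCAAT was in 43 of 51 (84.3%), against 33.8%. ATTTGCAT, the octamer bound by Oct factors, was in 10 of 51 (19.6%), against 1.60%. All were searched on both strands as exact matches, and head-to-head pairs share part of their sequence.

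TATAAA was found in every class, in 4 of 6 H1, 5 of 13 H2A, 7 of 14 H2B, 4 of 7 H3 and 6 of 11 H4 promoters. CCAAT was in all 40 H1, H2A, H2B and H3 promoters of the table and in 3 of 11 H4 promoters, and the printed Hist1h4b promoter holds none in 150 bases. The octamer was in 5 of 13 H2A and 5 of 14 H2B promoters and in no H1, H3 or H4 promoter. By call, the octamer was in 7 of 16 promoters with CTCF alone, 1 of 8 with both factors and 2 of 24 with neither. The 7 count both genes of Hist1h2ah and Hist1h2bk, and of Hist1h2ae and Hist1h2bg, and each of these pairs shares 1 octamer. The 24 include the genes with 0 to 8.04% unique words, and the calls differ in their mix of histone classes. A link between octamer and CTCF was not tested. A match is a description of the sequence and not of a factor bound there.

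**Figure D5:**
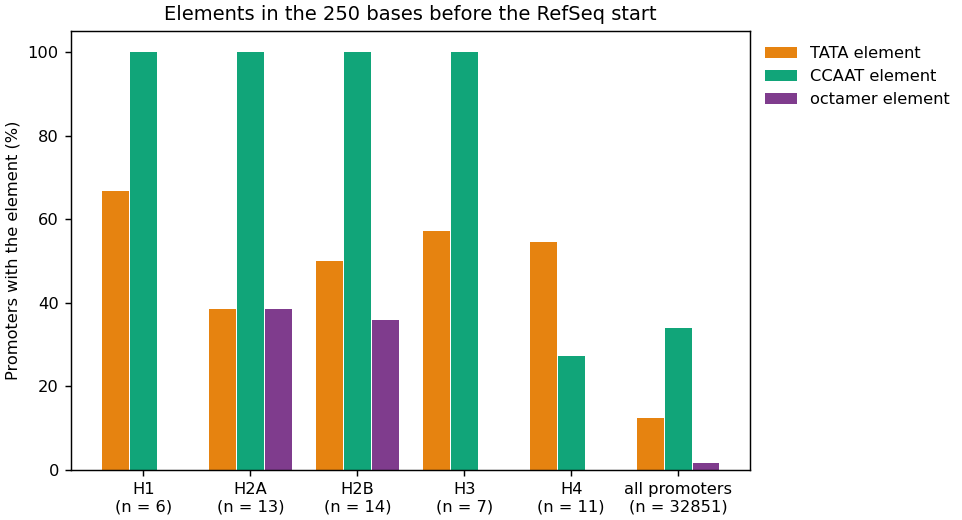
Percent of promoters (y axis) with the TATA, CCAAT or octamer element on either strand in the 250 bases before the RefSeq start, by histone class and for all promoters, with n under each group. The CCAAT bar is at 100% in 4 classes and at 27.3% for H4, and the octamer bar is above 0 among the members for H2A and H2B only.

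The promoters were poorer in GC and richer in CpG than promoters in general. Over those 250 bases and the 50 after the start, the median GC content of the members was 45.3%, against 52.7%, and the ratio of observed to expected CpG 0.76, against 0.38. H3 promoters had the lowest median GC content of the 5 classes, 39.3%.

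CTCF motifs were called with a 20-base matrix learned from 1000 strong CTCF peaks on other chromosomes. Within 100 bp of the summit, a match was found at 21 of 79 CTCF peaks of the windows (26.6%, 18.1 to 37.2%), against 45.0% on chromosome 13. For CAC peaks the share was 16 of 33 (48.5%, 32.5 to 64.8%), against 47.0%. For Lone CTCF peaks it was 5 of 46 (10.9%, 4.73 to 23.0%), against 39.5%. CAC peaks of the windows thus had the motif about as often as those of the chromosome, and Lone CTCF peaks less often, with an interval that did not reach the chromosome's value. Some Lone CTCF peaks lie in like sequence, with the same best 20-base site at peaks of Hist1h2ah, Hist1h2ae and Hist1h2ac. The interval counts such peaks as independent. None of the 13 CNC peaks had the motif, which allows a share of up to 23.1%, and on chromosome 13 the share was 2.30%.

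By strength, the gap to the chromosome was found in the weaker peaks. At a fold enrichment of 10 or more, 14 of 20 CTCF peaks had the motif (70.0%), against 76.4% on chromosome 13. From 5 to 10 it was 2 of 13 (15.4%), against 43.0%. Below 5 it was 5 of 46 (10.9%), against 22.5%.

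Strong shared peaks, with a fold enrichment of at least 10 for both CTCF and Rad21, numbered 14, with 4 in run 1, 9 in run 2 and 1 in run 3. Only 1 of them, at Hist1h4j, lay within 1 kb of a member's start. A motif was found in 10 of the 14, on the plus strand in 5 and on the minus strand in 5. In run 1 the strongest CTCF peak was at chr13:22065937-22066539, with 24.5 for CTCF and 22.8 for Rad21. It was followed by chr13:22120501-22121020, with 22.9 and 19.8, and chr13:22020421-22020849, with 22.2 and 11. The genes starting nearest to them were Pom121l2, Gm11292 and Zfp184, and no member started between the outer 2.

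In run 2 the strongest CTCF peaks were at chr13:23884347-23884804, with 21.5 for CTCF and 20.1 for Rad21, and at chr13:23722509-23722944, with 21.1 and 19.2. A peak at chr13:23689824-23690451 had 20.3 for CTCF and the highest Rad21 value of the run, 22.1. Of the strong shared peaks of run 2, the 2 nearest to a member were 2906 bp upstream of Hist1h4c, with 11.6 and 17.9, and 6120 bp upstream of Hist1h1c, with 17.8 and 18.8.

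The strong shared peaks split the windows into intervals of unequal content. The longest, from 21826167 to 22020618 in run 1, was 194.5 kb and held 14 member starts from Hist1h4j to Hist1h2br, with 1 CTCF peak and 2 Rad21 peaks inside. It includes the 6 genes with 0 to 8.04% unique words, and their part in its length and peak count was not tested. In run 2 an interval of 73.3 kb held 14 member starts from Hist1h4h to Hist1h4d. Another of 60.0 kb held 9, from Hist1h1c to Hist1h1a, with 12 CTCF peaks and 1 Rad21 peak inside. This was the highest number of CTCF peaks in any of the intervals.

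Borders were described by the nearest and the strongest CAC peak in a 50 kb flank. On the left of run 1 the nearest was chr13:21806592-21807023, with 10.1 for CTCF and 8.59 for Rad21, and the strongest chr13:21801733-21802228, with 15.7 and 4.57. On the right the nearest was chr13:22135979-22136451, with 13.3 and 4.91, and the strongest chr13:22142760-22143297, with 18.8 and 4.86. All 4 had a motif.

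The 2 nearest border peaks of run 1 had a similar place. Each lay beyond the far end of the outermost H2B gene, Hist1h2bl on the left and Hist1h2bj on the right.

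On the right of run 2 the nearest CAC peak was chr13:24034744-24035094, with 8.93 for CTCF and 5.25 for Rad21 and a motif. The strongest was chr13:24042770-24043268, with 18 and 17.8 and a motif.

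For Hist1h2al, the nearest CAC peak on the left was chr13:51287085-51287522, with 7.70 for CTCF and 11.6 for Rad21. The strongest was chr13:51266378-51267196, with 13 and 11.6, in a coding exon of Nxnl2. There was no CAC peak on its right, where the flank held a Lone CTCF peak of 4.54 and a CNC peak of 5.47.

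The other protein-coding genes that start in the same windows were set beside the members. Of these 15, 6 had both factors, 1 had CTCF alone, 1 had Rad21 alone and 7 had neither. The 6 were Zfp184, the iron-uptake regulator gene Hfe, the solute carriers Slc17a2, Slc17a3 and Slc17a4, and Nxnl2. Hfe had 5.73 for CTCF and 5.98 for Rad21. CTCF without Rad21 thus held for 1 of 15 neighbors, Btn2a2, and for 19 of 56 members in the same windows.

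Replication-dependent histone genes at other loci (Hist2, Hist3 and Hist4) numbered 14. Of these, 5 had both factors and 9 had neither. None had CTCF alone, and 0 of 14 allows a share of up to 21.4%. The share of unique words was not measured for these 14 genes. Hist3h2a and the pseudogene Hist3h2bb-ps shared a peak with 13.3 for CTCF and 7.09 for Rad21. Hist2h2ab had 5.25 and 5.49, and Hist2h2ac and Hist2h2be shared peaks with 2.66 and 3.05.

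Genes of replication-independent histones, which are transcribed outside S phase, had both factors in 8 of 11. H2afz, encoding H2A.Z, had 2.86 for CTCF and 13.5 for Rad21, and H2afv had 12.5 and 5.35. H2afy2 and H2afj had CTCF without Rad21, at 7.15 and 3.13, and H3f3b had neither. Of the 15 genes for factors of histone gene expression and 3′ end processing, 14 had both. Npat, the coactivator of histone gene transcription, had 15.4 for CTCF and 3.49 for Rad21, and Slbp, which binds the stem-loop, had 7.33 and 5.24. Lsm11, of the U7 particle that processes the 3′ ends, had 34.1 and 23.8, while Zfp473 had neither. CTCF without Rad21 thus took a larger share of the Hist1 starts than of any of these 3 small lists, and this difference was not tested.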

How the data were processed

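CTCF and Rad21 ChIP-seq peaks of female liver were used as deposited. Per the labels and the study's methods, reads had been aligned by Bowtie2 to assembly mm9 and only those with a single genomic position retained. MACS2 was run on the pooled reads of each antibody, and peaks on blacklisted regions or consisting of duplicates alone had been taken out by the authors. The deposited lists give for each peak a score, a fold enrichment (a ratio), −log10 p-values and q-values, and the summit offset. Read length of these libraries is not given in the sources used here. The pools carry no replicates, so no SD between samples and no test was computed, and shares have 95% Wilson intervals. Upper limits for a count of 0 are 3 counts of the total.

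Peak coordinates lay within the mm9 chromosome lengths. Gene starts are the 5′ ends of GENCODE vM1 gene records. The motif matrix was learned from 1000 strong CTCF peaks on even-numbered autosomes, with chromosome 18 left out, and matches score at least 12.7 bits (1% of background windows). Overlaps, motif calls and unique words were tested on simulated data. Python tools were numpy 2.4.6, scipy 1.17.1, pandas 2.3.3, numba 0.67.0 and matplotlib 3.10.9.

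Members, gene lists and comparisons were chosen with earlier results of these data known. The naming rule took the 30 members with the highest fold enrichment of either factor among those with a promoter peak, ranked by the higher of both values to choose names only, the 3 strongest peaks of each factor per run, and the border peaks. The border peak on the left of run 2 is not reported here. Hist1h4a, the lowest of the 31 such members, is named for completeness. The count with CTCF and no Rad21, and its comparison by strength, were added after the data were seen.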

Additional observations from a re-analysis of the deposited data

How the results depend on the processing

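Of 51 alternative values, 37 stayed within their limit, which was 1.5 times for a count, the 95% interval for a background share and 1 SD over members for the unique share. The order of the CTCF share of the members (50%) and its background (50.9%) did turn, since it was 56% without the 6 repeated genes. A −log10 q of at least 10 in both lists left 50 CTCF and 29 Rad21 peaks in the windows, 6 Hist1 starts with Rad21 and 0 with Rad21 alone. A fold enrichment of at least 5 in both lists left 33 CTCF peaks, 21 Rad21 peaks and 19 CAC peaks, with 12 starts with CTCF, 5 with Rad21 and 9 with CTCF alone. Background shares of starts with CTCF, with Rad21 or with Rad21 alone were not counted at either limit, so these counts cannot be set against all gene starts.

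The starts with CTCF and no Rad21 depend on how both lists are thresholded. With a fold enrichment of at least 5 in both they were 9 of 56 (16.1%), against 10.1% of all protein-coding autosomal genes. With at least 5 for CTCF and any Rad21 peak they were 7 of 56 (12.5%), against 0.882%. With the q limit they were 15 of 56 (26.8%), against 7.52%. As a share of all starts, the first of these brings the members close to the background, and the cause was not tested. Of the 12 members with a CTCF peak of at least 5, 9 had no Rad21 peak of at least 5. The background was not counted in that way. Over all annotated autosomal genes the background shares were 37.3% for CTCF, below that of the members, and 36.7% for Rad21. At a motif threshold of 5% of background windows, 39 of 79 CTCF peaks had a match (49.4%, 38.6 to 60.2%), against 61.6% on chromosome 13.

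No paired analysis was possible because the lists are pooled and their columns carry no replicate numbers, and for the same reason no replicate was left out. Most promoter peaks lie below the median fold enrichment of their list, and the lists do not show that a start without a listed Rad21 peak lacks Rad21, since the depth of the pools was not used.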
